A study of Glycine soja with 14 samples.

Results

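Allene oxide synthase (AOS), allene oxide cyclase (AOC) and 12-oxophytodienoate reductase (OPR) act one after the other in the synthesis of jasmonates, and their transcripts were followed here in root tips of wild soybean (Glycine soja, line G07256) over 24 h of alkaline stress. Of 37594 soybean probe sets on the array, 13 were taken, 4 for AOS, 4 for AOC and 5 for OPR. The AOS and AOC probe sets were chosen by gene symbol in the array's annotation, which comes from cultivated soybean. No OPR symbol stood in that annotation, so the OPR probe sets were those that the study's own tables of changed probe sets describe as 12-oxophytodienoate reductase. Where 1 gene had several probe sets, they are told apart by a letter (AOS1a, AOS1b and AOS1c, AOC3a and AOC3b, and LOC100803381a and LOC100803381b), and the plot of intensities gives the array name of each. The study's tables were drawn up from these same arrays. Calls of the 5 OPR probe sets are therefore not independent evidence of a change, and counts are given apart for them and for the 7 tested AOS and AOC probe sets. All counts are of probe sets and not of genes, since AOS1, AOC3 and LOC100803381 each gave a pair of tested probe sets. AOS1a and AOS1b, though chosen by symbol, stand in those tables too.

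Seedlings of 21 days after germination, as the labels give their age, were moved from quarter-strength nutrient solution into the same solution with 50 mmol/L NaHCO3 at pH 8.5. The apical 3 cm of the roots were taken after 0.5 h and 1 h, after 3 h and 6 h, and after 12 h and 24 h, and from unstressed plants at 0 h. Each of the 7 times had 2 arrays, each of roots pooled from 3 plants, which makes 14 arrays in all. The 0 h roots were the only unstressed ones, so that stress and the hour of the day cannot be told apart. All values are from whole root tips, in which fewer cells of a type and less RNA per cell cannot be told apart.

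Jasmonates are plant hormones of wounding, defence and stress, made from linolenic acid released from plastid membranes. A lipoxygenase adds oxygen to the fatty acid, AOS turns the hydroperoxide into an unstable allene oxide, and AOC closes its ring to give 12-oxophytodienoic acid (OPDA). OPDA then moves to the peroxisome, where OPR3 of Arabidopsis and tomato reduces it on the way to jasmonic acid, and the side chain is shortened by beta-oxidation. Arabidopsis OPR1 and OPR2 are cytosolic relatives of OPR3 that have little part in the main route.

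Values are dChip intensities, a model-based brightness of each probe set with no fixed unit, which can be set against each other between arrays for 1 probe set but not between probe sets. A change is a difference of mean log2 intensity and was called where limma gave an unadjusted p under 0.05 and an adjusted p under 0.15, limits taken from the study's methods. Changes carry a minus sign where the level was lower than at the time it was compared with. The change was tested on 28567 soybean probe sets with a mean log2 intensity above 3.91, an intensity of 15.1, below which 95% of the probe sets of a soybean pathogen on the same array lay. Of the 13 probe sets, 12 were tested. The exception was AOS1c, at a mean log2 intensity of 3.27 and with intensities between 3.96 and 23.8 over the 14 arrays.

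Median intensities of the arrays lay between 13.7 and 17.4. The hybridisation control spikes were lower on replicate 2 of 12 h (mean log2 9.29) and replicate 1 of 0.5 h (9.45) than on the other 12 arrays (10.1 to 10.8). Root genes were above background by their mean over the 14 arrays (6 of 6 probe sets), with summed intensities of 9737 to 21458 on single arrays. Nodule genes were too (3 of 3, 1197 to 2572). Leaf genes were detected too (5 of 6 probe sets above background), with summed intensities of 374 and 325 at 12 h and of 7920 and 9473 at 24 h, against 6781 and 4826 at 0 h. The median change of all tested probe sets was -0.14 at 3 h and -0.13 at 24 h, and within 0.05 of 0 at the other times against 0 h.

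The 12 probe sets moved in 3 steps over the stress period. They lay at or below their 0 h level in the first hour for the most part, were highest at 3 h or 6 h, and then dropped to their lowest levels at 12 h or 24 h. The mean log2 intensity was highest at 3 h for 9 of the 12 probe sets, at 6 h for 2 and at 0 h for 1, and it was lowest at 24 h for 6, at 12 h for 5 and at 0.5 h for 1. The time means of a probe set spanned between 1.49 and 3.57 log2 units, which lay between the 78.8th and the 98.6th percentile of all tested probe sets.

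**Figure D1:**
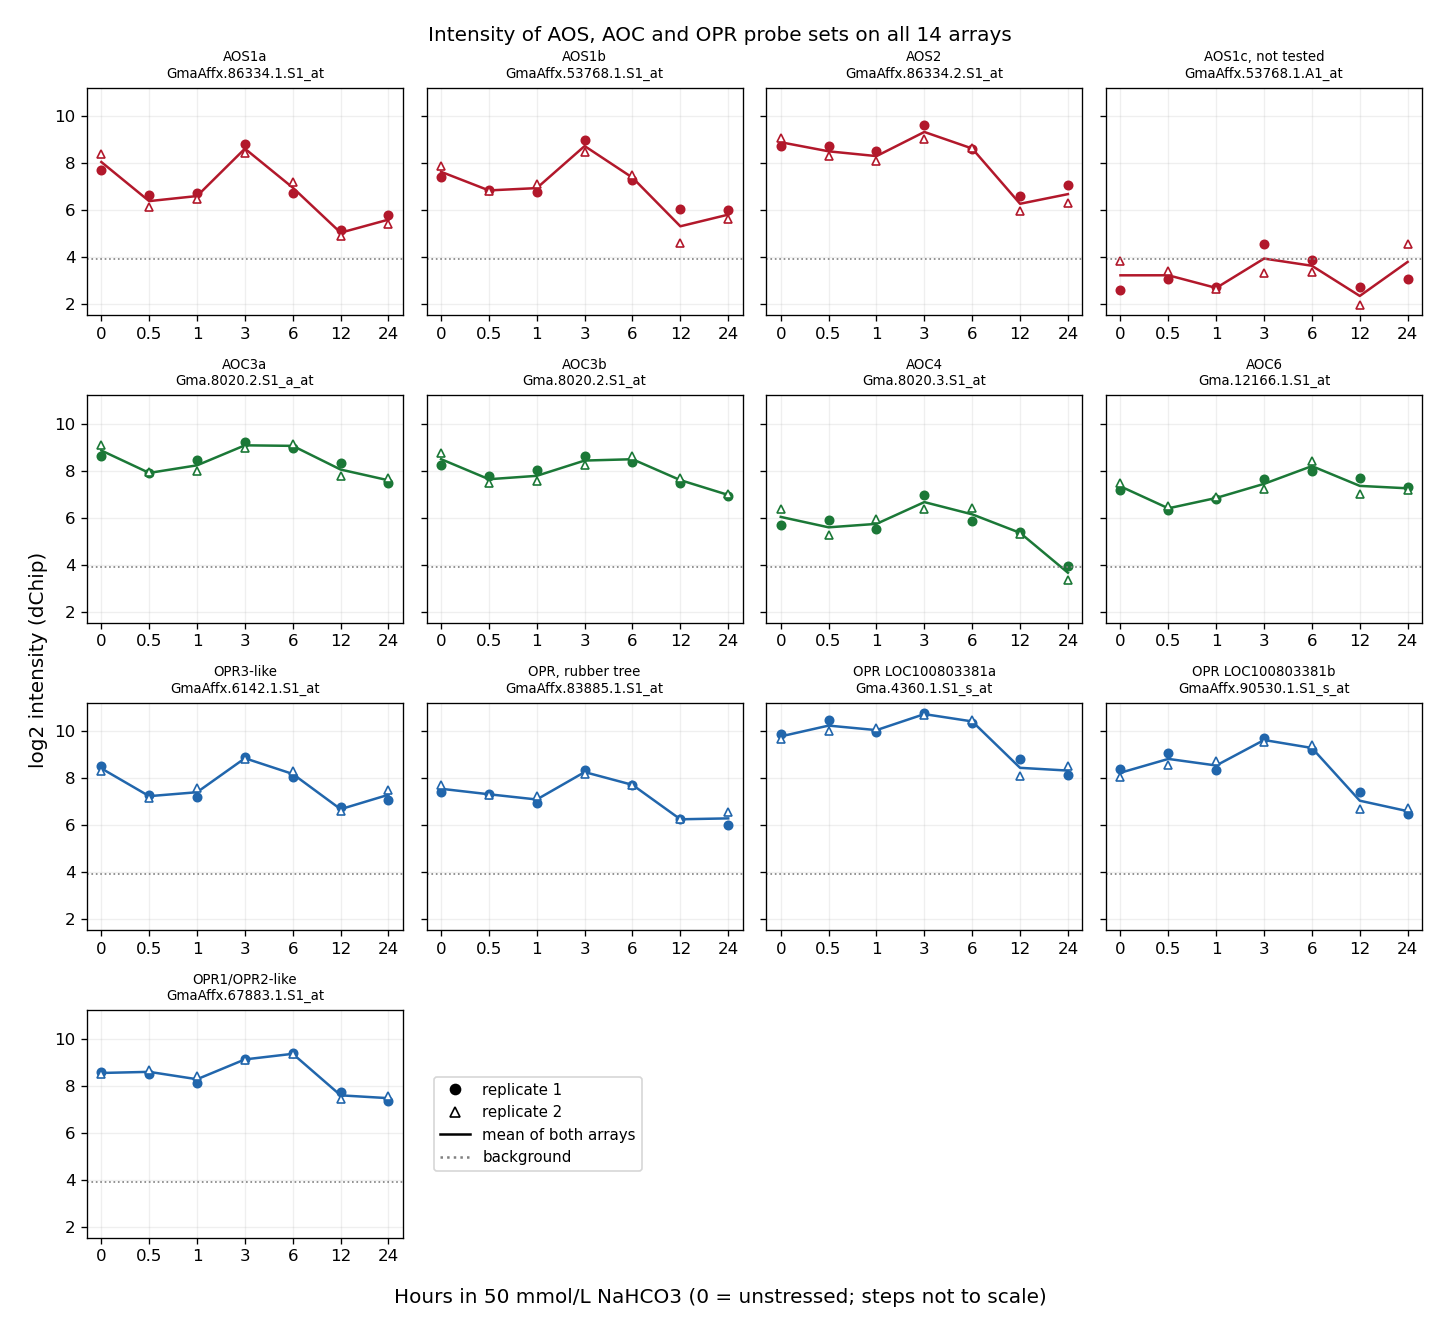
Log2 dChip intensity (vertical axis) of the 13 AOS, AOC and OPR probe sets on all 14 arrays against hours in NaHCO3 (horizontal axis, steps not to scale); filled circles are replicate 1, open triangles replicate 2, lines join the means of both, and the dotted line is the background of 3.91. The curves have their highest mean at 3 h for 9 of the 12 tested probe sets and their lowest mean at 12 h or 24 h for 11 of them, while AOS1c stays around the background.

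The late drop was the most widespread change. At 12 h against 6 h, 7 of 7 AOS and AOC probe sets were called lower, against a background of 18.6% of all tested probe sets called lower in that comparison, and both arrays of 12 h lay below both arrays of 6 h for 7 of 7 (background 31.6%). The 5 OPR probe sets, chosen from tables made on these arrays, were called lower too, which makes 12 of 12. The median log2 change was -1.01 for AOS and AOC and -1.77 for OPR, with a median of 0.00 over all tested probe sets. Against 0 h, 5 of 7 AOS and AOC probe sets were called lower at 12 h (background 16.4%, median change -0.89) and 6 of 7 at 24 h (background 19.6%, median change -1.82), beside 5 of 5 OPR at each time. None was called higher at either time. Both arrays lay below both 0 h arrays for 6 of 7 AOS and AOC at 12 h (background 31%) and for 6 of 7 at 24 h (background 39.4%). Leaving out any single array gave 8 to 10 calls of 12 at 12 h and 11 calls at 24 h.

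The climb before it fell between 1 h and 3 h. At 3 h against 1 h, 6 of 7 AOS and AOC probe sets were called higher (background 5.51%) and none lower (background 11.6%), with a median change of 0.93. Both 3 h arrays lay above both 1 h arrays for 7 of 7 (background 21%). With 5 of 5 OPR called higher, the count was 11 of 12. This count rested on single arrays, being 4 and 6 without replicate 1 and replicate 2 of 1 h, and 4 and 5 without replicate 1 and replicate 2 of 3 h. Against 0 h the climb was smaller. At 3 h, 1 of 7 AOS and AOC probe sets was called higher (AOS1b, background 5%) and none lower (background 12%), and both arrays lay above both 0 h arrays for 2 of 7 (background 20.8%). The 4 other calls at 3 h were of OPR probe sets, for which the background gives no measure. At 6 h, 1 of 7 AOS and AOC probe sets was called higher (background 8.67%) and 1 lower (background 12.1%), beside 3 of 5 OPR called higher. The 5 calls at 3 h became 1 without replicate 1 of 0 h, 0 without replicate 2 of 0 h, and 1 without either array of 3 h. The 5 calls at 6 h became 3 and 2 without replicate 1 and replicate 2 of 0 h and 3 and 2 without replicate 1 and replicate 2 of 6 h. The poly-A control spikes, added to the RNA before labelling, had mean log2 intensities of 8.06 and 7.85 at 3 h and of 7.49 and 7.92 at 1 h, against 5.60 and 5.64 at 0 h, and their part in the changes was not tested.

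In the first hour the calls were few and all downward. At 0.5 h, 4 of 7 AOS and AOC probe sets were called lower than at 0 h (background 3.27%) and none higher (background 2.26%). Of the 5 OPR, for which the background gives no measure, 1 was called lower and none higher. Both arrays lay below both 0 h arrays for 6 of 7 AOS and AOC (background 25.7%). At 1 h, 1 of 7 AOS and AOC probe sets was called lower (background 0.375%) and none higher (background 0.179%). Beside them, 1 of 5 OPR was called lower and none higher. Between 0.5 h and 1 h none of the 7 AOS and AOC probe sets was called higher (background 0.851%) or lower (background 0.693%), nor was any OPR. The count of 5 at 0.5 h was 1 without replicate 2 of 0 h and 2 without either array of 0.5 h. The count of 2 at 1 h was 1 without replicate 1 of 0 h or either array of 0.5 h, and 0 without replicate 2 of 0 h or any of the arrays of 1 h, 3 h or 6 h.

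**Figure D2:**
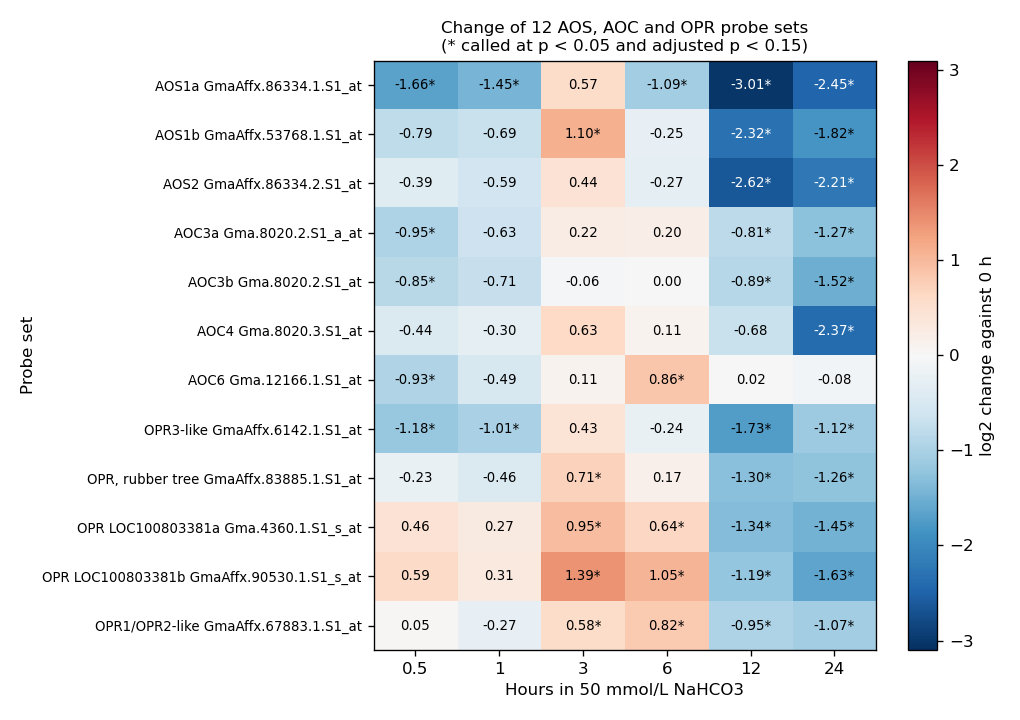
Log2 change against 0 h (colour scale, red above and blue below 0, with the value in each cell) of the 12 tested AOS, AOC and OPR probe sets (rows) at 0.5 to 24 h in NaHCO3 (columns); asterisks mark changes called at an unadjusted p under 0.05 and an adjusted p under 0.15. All 10 calls at 12 h and all 11 at 24 h are lower than 0 h, and all 5 at 3 h are higher. The 3 lowest rows, described as OPR1 or OPR2 and in part also as PsOPR3 of pea, are called higher at 6 h.

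AOS is the first enzyme committed to the allene oxide branch. The AOS1 probe set AOS1a, with the widest range of time means of the 12 (3.57), had intensities at 0 h of 211 and 333, at 0.5 h of 101 and 69.8, at 1 h of 106 and 89.8, at 3 h of 450.2 and 344, at 6 h of 107 and 146, at 12 h of 35.9 and 30.4, and at 24 h of 55.5 and 42.5. Only at 3 h did both arrays lie above both 0 h arrays, and at the 5 other stress times both lay below them. At 0.5 h and 1 h it was called lower than 0 h, with changes of -1.66 and -1.45 (SE 0.28, n = 2 arrays a time, limma adjusted p = 0.025 and 0.119). Later calls were -1.09 at 6 h, -3.01 at 12 h and -2.45 at 24 h (limma adjusted p = 0.0378, 0.000217 and 0.000746). This put the 12 h level 8.03-fold below 0 h, the largest fall of the 12 probe sets, and the change of 0.57 at 3 h was not called (adjusted p = 0.248). Between neighbouring times it was called higher by 2.01 from 1 h to 3 h, and lower by -1.66 at 6 h against 3 h and by -1.92 at 12 h against 6 h (adjusted p = 0.0129, 0.0139 and 0.00185). The calls at 12 h and 24 h held without any single array. The call at 0.5 h was lost without replicate 2 of 0 h (adjusted p = 0.159), the call at 6 h without replicate 2 of 0 h (0.224) or replicate 1 of 6 h (0.23), and the call at 1 h without replicate 2 of 0 h or any array of 1 h, 3 h or 6 h (0.172 to 0.483).

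The probe set AOS1b had intensities at 0 h of 168 and 235, at 0.5 h of 117 and 113, at 1 h of 108 and 139.7, at 3 h of 512 and 353, at 6 h of 156 and 179, at 12 h of 65.8 and 24.2, and at 24 h of 64.5 and 49.1. The 3 h arrays stood above and the 12 h and 24 h arrays below those of every other time. It was called higher at 3 h by 1.095 and lower by -2.32 at 12 h and -1.82 at 24 h (SE 0.40, adjusted p = 0.132, 0.00468 and 0.0144). The 3 h call was lost without any one of 10 arrays, those of 0 h to 6 h (adjusted p from 0.15 to 0.411), while the calls at 12 h and 24 h held without any single array. The arrays of 12 h differed by more than those of other times, replicate 2, which also had the low hybridisation spikes, being the lower, and the part of the spikes in this was not tested.

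The AOS2 probe set had intensities at 0 h of 422 and 535, at 0.5 h of 421 and 314, at 1 h of 364 and 274, at 3 h of 783.5 and 528, at 6 h of 387 and 403, at 12 h of 96.5 and 62.2, and at 24 h of 133 and 79.6. Unlike the arrays of 12 h and 24 h, which were far below all others, the arrays of 3 h overlapped those of 0 h. Its changes up to 6 h lay between -0.59 and 0.44 and none was called. It was then called lower by -2.62 at 12 h, 6.13-fold, and by -2.21 at 24 h (SE 0.32, adjusted p = 0.000771 and 0.00191), and both calls held without any single array. The call of 1.03 at 3 h against 1 h (adjusted p = 0.0897) was lost without any one of the 4 arrays compared (0.165 to 0.333).

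AOC sets the stereochemistry of OPDA. The AOC3 probe set AOC3a had intensities at 0 h of 395 and 546, at 0.5 h of 236 and 244, at 1 h of 352 and 256, at 3 h of 592 and 495, at 6 h of 499.9 and 567, at 12 h of 319 and 220.3, and at 24 h of 179 and 209. The arrays of 3 h and 6 h overlapped those of 0 h, and those of every other stress time lay below them. It was called lower by -0.95 at 0.5 h, -0.81 at 12 h and -1.27 at 24 h (SE 0.24, adjusted p = 0.0894, 0.0532 and 0.00771), the last a 2.41-fold fall. The call at 24 h held without any single array, the call at 12 h was lost without replicate 2 of 0 h (0.287) or of 12 h (0.238), and the call at 0.5 h without replicate 2 of 0 h (0.366) or either array of 0.5 h (0.263 and 0.157).

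The probe set AOC3b gave the same 3 calls against 0 h, with -0.85 at 0.5 h, -0.89 at 12 h and -1.52 at 24 h (SE 0.24, adjusted p = 0.121, 0.037 and 0.00314). Its intensities ranged from 120.3 on replicate 1 of 24 h to 432 on replicate 2 of 0 h, and it was the only one of the 12 with its highest mean at 0 h. Without replicate 2 of 0 h the calls at 0.5 h (0.444) and 12 h (0.232) were lost, the call at 0.5 h also without either array of 0.5 h or of 6 h (0.171 to 0.28), and the call at 24 h held without any single array. Both probe sets carry the symbol of 1 gene and are not independent measurements of the family.

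The AOC4 probe set was the dimmest of those tested. It had intensities at 0 h of 51.5 and 83.8, at 0.5 h of 59.8 and 39, at 1 h of 46.6 and 61.4, at 3 h of 124 and 83.3, at 6 h of 58.4 and 85.9, at 12 h of 42.5 and 39.7, and at 24 h of 15.6 and 10.3. The arrays of 24 h were at the background of 15.1, and up to 6 h all times overlapped 0 h. Against 0 h it was called lower only at 24 h, by -2.37 or 5.18-fold (SE 0.34, adjusted p = 0.00182), and it was lower at 24 h than at 12 h by -1.70 (adjusted p = 0.0093). Both calls held without any single array. The call of -0.79 at 12 h against 6 h (adjusted p = 0.131) was lost without any one of the 4 arrays compared (0.155 to 0.49). With the 24 h arrays at background, the size of this fall is less certain than the call.

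The AOC6 probe set followed another course. It had intensities at 0 h of 146 and 178, at 0.5 h of 79.9 and 89.5, at 1 h of 109.9 and 119.8, at 3 h of 202 and 149.6, at 6 h of 253 and 340.5, at 12 h of 207 and 129.7, and at 24 h of 158 and 147. Its highest arrays were those of 6 h, and at 3 h, 12 h and 24 h its arrays overlapped those of 0 h. It was called lower by -0.93 at 0.5 h and higher by 0.86, or 1.82-fold, at 6 h (SE 0.25, adjusted p = 0.106 and 0.0562). At 12 h and 24 h the change was 0.02 (95% interval -0.53 to 0.58) and -0.08 (-0.64 to 0.47), which made it the only tested probe set of the 12 not called lower at 24 h. The call at 0.5 h was lost without any one of the 4 arrays compared (0.155 to 0.371) and the call at 6 h without replicate 1 of 0 h (0.267) or replicate 2 of 6 h (0.33). Whether its change at 24 h differed from those of AOC3 and AOC4 was not tested.

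The 5 OPR probe sets shared the late drop, 5 of 5 being called lower at 12 h and at 24 h, and differed earlier. 1 of them, called OPR3-like here, is described after OPR3 of tomato, the peroxisomal form that acts on the jasmonate route. It had intensities at 0 h of 369 and 317, at 0.5 h of 157 and 145, at 1 h of 148 and 194, at 3 h of 474 and 449.6, at 6 h of 263 and 321, at 12 h of 108 and 97.8, and at 24 h of 136 and 182. Its arrays were below those of 0 h in the first hour and again at 12 h and 24 h, above them at 3 h, and overlapped them at 6 h. It was called lower by -1.18 at 0.5 h and -1.01 at 1 h, and by -1.73 at 12 h and -1.12 at 24 h (SE 0.20, adjusted p = 0.0248, 0.124, 0.000604 and 0.00565), whereas the change of 0.43 at 3 h was not called (adjusted p = 0.217). It rose again from its 12 h level, being called higher by 0.61 at 24 h against 12 h (adjusted p = 0.0625), a call lost without replicate 2 of 12 h (0.181) or of 24 h (0.334). The calls at 0.5 h, 12 h and 24 h held without any single array, and the call at 1 h was lost without any one of the 10 arrays of 0 h to 6 h (0.154 to 0.35).

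The rubber tree OPR match, a probe set described after an OPR of that species, had intensities at 0 h of 170.0 and 207, at 0.5 h of 162 and 157, at 1 h of 123 and 152, at 3 h of 327 and 288, at 6 h of 213 and 208, at 12 h of 76.1 and 76.6, and at 24 h of 65.3 and 94.1. The arrays of 3 h were the highest and those of 12 h and 24 h the lowest. It was called higher by 0.71 at 3 h and lower by -1.30 at 12 h and -1.26 at 24 h (SE 0.20, adjusted p = 0.0721, 0.0026 and 0.00306). The call at 3 h was lost without any one of the 4 arrays compared (0.162 to 0.278), and those at 12 h and 24 h held without any single array.

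The other 3 OPR probe sets are described after OPR1 or OPR2 of Arabidopsis, and 2 of them carry the symbol LOC100803381. The study's tables also describe LOC100803381a and the probe set without a symbol as a hypothetical protein PsOPR3 of pea. Which form of OPR these probe sets measure is therefore not settled by their descriptions. Of these, LOC100803381a had intensities at 0 h of 939 and 821, at 0.5 h of 1416 and 1029, at 1 h of 1005 and 1111, at 3 h of 1757 and 1632, at 6 h of 1298 and 1436, at 12 h of 448 and 270.2, and at 24 h of 283 and 364. All arrays of 0.5 h to 6 h lay above both 0 h arrays, and all arrays of 12 h and 24 h below them. It was called higher by 0.95 at 3 h and 0.64 at 6 h and lower by -1.34 at 12 h and -1.45 at 24 h (SE 0.25, adjusted p = 0.062, 0.143, 0.00724 and 0.00481). The call at 3 h was lost without any one of the 4 arrays compared (0.169 to 0.245), the call at 6 h without any one of the 8 arrays of 0 h, 1 h, 3 h and 6 h (0.169 to 0.443), and those at 12 h and 24 h held without any single array.

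The probe set LOC100803381b, described after OPR1 alone, had intensities at 0 h of 337 and 269, at 0.5 h of 535 and 382, at 1 h of 323 and 429.7, at 3 h of 842 and 740.1, at 6 h of 580.5 and 672, at 12 h of 171 and 102, and at 24 h of 88.1 and 107. It showed the largest rise against 0 h of the 12 probe sets, 1.39 or 2.62-fold at 3 h, and was still higher by 1.05 at 6 h (SE 0.27, adjusted p = 0.0315 and 0.0381). It was called lower by -1.19 at 12 h and -1.63 at 24 h (adjusted p = 0.019 and 0.00422). The call at 3 h was lost without replicate 2 of 0 h (0.155), that at 6 h without replicate 2 of 0 h (0.193) or of 6 h (0.209), and those at 12 h and 24 h held without any single array.

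The third of these, called OPR1/OPR2-like here, had intensities at 0 h of 385 and 360.5, at 0.5 h of 367 and 405, at 1 h of 279 and 345, at 3 h of 565 and 547, at 6 h of 666 and 646, at 12 h of 214 and 174, and at 24 h of 164.5 and 191. It had the tightest replicates of the 12, and the arrays of 6 h were its highest. It was called higher by 0.58 at 3 h and 0.82 at 6 h, 1.76-fold, and lower by -0.95 at 12 h and -1.07 at 24 h (SE 0.17, adjusted p = 0.0808, 0.0156, 0.00565 and 0.0031). The calls at 6 h, 12 h and 24 h held without any single array, and that at 3 h was lost without any one of the 4 arrays compared (0.204 to 0.276). In the first hour these 3 probe sets had changes between -0.27 and 0.59 and were not called, while the OPR3-like probe set was called lower at both times; whether the changes of these probe sets differed from each other was not tested.

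By family, the changes at 12 h against 6 h had a median of -2.07 for the 3 AOS probe sets, -0.87 for the 4 AOC and -1.77 for the 5 OPR. At 24 h against 12 h they had medians of 0.49, -0.54 and -0.12. In that interval 2 of 7 AOS and AOC probe sets were called lower (background 19.8%), AOC3b and AOC4, and none higher (background 12.1%). Of the 5 OPR, 1 was called higher and none lower. The count of 3 calls among the 12 was 1 without replicate 2 of 24 h and 2 without replicate 1 of 24 h. From 3 h to 6 h, 2 of 7 AOS and AOC probe sets were called lower (background 4.56%), the AOS1 pair, which stand in the study's tables too. AOC6 was called higher by 0.75 (background 8.05%). Of the 5 OPR, only the OPR3-like probe set was called, and it was lower. The 4 calls became 1 without any one of the arrays of 3 h or 6 h.

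A single test of any change over the 7 times, an F-test in limma called at an adjusted p under 0.001, was passed by 2 of the 7 AOS and AOC probe sets, AOS1a (0.000148) and AOS2 (0.00044), against a background of 4.5%. It was also passed by the 5 OPR (0.00021 to 0.000396), most of which came from the study's own list of probe sets changed over time, so that nothing is read from their count. The AOC probe sets and AOS1b had adjusted p-values between 0.00168 and 0.00702. Without either array of 3 h or of 6 h, 1 of the 12 passed, and without either array of 24 h 4 did.

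Over the 14 arrays the probe sets of a gene moved closely together. Pearson's r of log2 intensity was 0.99 for the pair of LOC100803381, 0.95 for the pair of AOS1 and 0.94 for the pair of AOC3. The OPR3-like probe set had an r of 0.92 with AOS1a and of 0.69 with LOC100803381a. AOC6 stood apart, with r between 0.08 and 0.63 to the other 11, whereas r among these 11 lay between 0.60 and 0.99. These values are a description of arrays that share 7 times, and related probe sets may bind each other's transcripts.

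The probe sets with a symbol or a description that ran most like AOS were sought among 4535 candidates with a range of at least 1 log2 unit. For AOS1a over the 14 arrays, r was 0.97 for LOC100815478, 0.96 for LOC100306332 (range of time means 5.08 log2 units), 0.96 for a hypothetical protein, and 0.96 each for a major facilitator superfamily protein and LOC100800404. For AOS1b r was 0.97 for a protein with a FAD-binding domain, 0.96 for the same hypothetical protein, 0.95 for an amino acid permease described as AAP2, and 0.94 each for a myosin and a VHS and GAT domain protein. These are the highest of many correlations and carry no test.

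Other genes of the pathway gave 45 probe sets, 39 of them tested. Of these, 30 were chosen by symbol, and 9 only because the study's tables of changed probe sets describe them. Calls of those 9 are not independent evidence of a change. They include the lipoxygenase of LOC547694, those described after Sesbania rostrata, the acyl-CoA oxidase, the carboxyl methyltransferase, the hydroperoxide lyase and the MYC2 probe set named below. At 6 h 14 of the 30 were called higher (background 8.67%) and 1 lower (background 12.1%), with a median change of 0.82. At 12 h 6 of the 30 were called higher (background 7.95%) and 2 lower (background 16.4%), with a median of 0.40, and at 24 h 3 higher (background 6.07%) and 1 lower (background 19.6%), with a median of 0.11. Of the 9, 4 were called higher and 1 lower at 6 h, and 1 higher and 4 lower at 12 h and again at 24 h. Lipoxygenases, the kind of enzyme that acts before AOS, made up 23 of the 39, several of them probe sets of 1 gene. All with a lipoxygenase symbol or description were taken, and which of them serve the jasmonate route was not examined. The 18 chosen by symbol had 11 called higher (background 8.67%) and none lower (background 12.1%) at 6 h. At 12 h against 6 h, 9 of the 18 were called lower (background 18.6%) and none higher (background 15.3%). Of all 23, 14 were called higher and 1 lower at 6 h, with a median change of 1.105. At 12 h 4 of the 23 were called higher and 2 lower, and at 24 h 3 higher and 2 lower. Both lower ones were described after a lipoxygenase of Sesbania rostrata and are named here after their values were seen. 1 of them had its highest mean at 3 h and changed by -1.22 at 12 h and -1.51 at 24 h (adjusted p = 0.00478 and 0.0016). The other was highest at 0 h and changed by -1.99 at 12 h and -1.91 at 24 h (adjusted p = 0.000699 and 0.001). The median change of the 23 against 0 h was 0.41 at 12 h and 0.03 at 24 h, beside -1.24 and -1.49 for the 12 AOS, AOC and OPR probe sets; the difference between the groups was not tested.

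**Figure D3:**
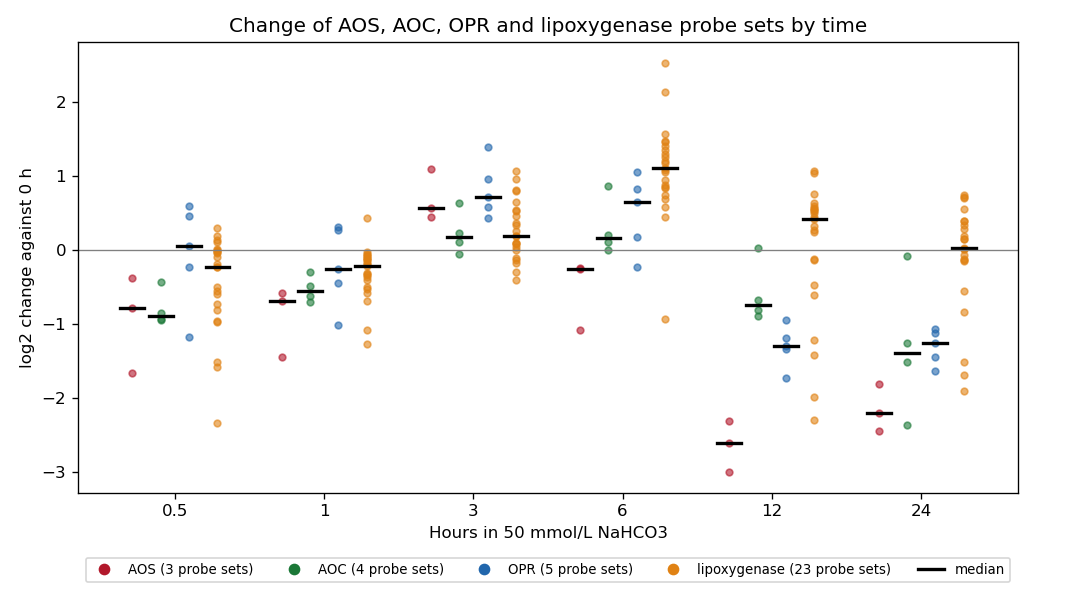
Log2 change against 0 h (vertical axis) of single probe sets (points) of AOS, AOC, OPR and lipoxygenase at 0.5 to 24 h in NaHCO3 (horizontal axis, steps not to scale), with black bars at the median of each family. Lipoxygenases have their highest median at 6 h (1.105) and a median of 0.41 at 12 h, where the AOS median is -2.62, the AOC median -0.74 and the OPR median -1.30.

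The lipoxygenase of LOC547694, chosen from the study's tables, had intensities of 160.1 and 168 at 6 h and of 53.4 and 64.1 at 12 h. At 0 h they were 23.6 and 34.6. It was called higher by 2.52 at 6 h and 1.04 at 12 h (SE 0.21, limma adjusted p = 0.000303 and 0.00992). VLXC, a vegetative lipoxygenase, was called higher by 2.12 at 6 h (adjusted p = 0.00339). LOX10 was called lower by -2.34 at 0.5 h (adjusted p = 0.0243) and higher by 1.47 at 6 h (adjusted p = 0.0421). The highest time mean was at 6 h for these 3 and for 20 of the 23 lipoxygenase probe sets in all, and at 0 h, 3 h and 12 h for 1 each.

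FAD7-2, a plastid desaturase that makes linolenic acid, had intensities at 3 h of 204 and 183, at 12 h of 16.2 and 22.4, and at 24 h of 7.56 and 11.7, against 82.3 and 140.0 at 0 h. It was called higher by 0.85 at 3 h and lower by -1.44 at 1 h and -2.50 at 12 h (SE 0.30, adjusted p = 0.128, 0.145 and 0.000781). At 24 h it was called lower (adjusted p = 0.000233) with both arrays below background, a fall of at least 7.14-fold when set against the background. Among relatives of FAD7-2, changes at 12 h were 0.88 for FAD3C and -0.73 for 1 probe set of FAD8.2, both called (adjusted p = 0.078 and 0.0283). The other tested probe set of FAD8.2 was not called at 12 h. In all, 1 of the 5 tested desaturase probe sets was called higher (background 7.95%) and 2 lower (background 16.4%) at 12 h.

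Downstream of OPR, an acyl-CoA oxidase, an enzyme of beta-oxidation, was called higher at 3 h by 0.66 (adjusted p = 0.0469). A carboxyl methyltransferase that the study's tables place under jasmonate biosynthesis had intensities at 6 h of 415.5 and 399.5, at 12 h of 18.2 and 16.3, and at 24 h of 9.45 and 6.36, against 40.9 and 72.9 at 0 h. It was called higher by 2.90 at 6 h and lower by -1.66 at 12 h (SE 0.64, adjusted p = 0.0206 and 0.124), where its arrays were just above background. At 24 h it was called lower (adjusted p = 0.0177) with both arrays below background, so that the fall is only bounded, at least 3.63-fold. A hydroperoxide lyase, which competes with AOS for the same hydroperoxides, was called lower than 0 h only at 24 h, by -1.71 (adjusted p = 0.0129). The acyl-CoA oxidase, the methyltransferase and the lyase were all chosen from the study's tables, so their calls are not independent evidence.

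The 7 probe sets of jasmonate perception and response were 6 of COI1, the jasmonate receptor, and 1 described after MYC2. At 6 h 3 of the 6 COI1 probe sets were called higher (background 8.67%) and none lower (background 12.1%). At 0.5 h 2 of the 6 were called higher (background 2.26%), by 1.11 and 0.84 (adjusted p = 0.0513 and 0.0999), and none lower (background 3.27%). At 3 h 2 others were called lower (background 12%), by -0.65 and -1.42 (adjusted p = 0.147 and 0.0773), and none higher (background 5%). The larger fall was with 3 h arrays of 15.9 and 14.5, at the background intensity of 15.1. The probe set of MYC2, a transcription factor of jasmonate responses, had intensities of 165 and 13.1 at 12 h, against 210.5 and 209 at 0 h. Its call at 12 h, -2.17 with an adjusted p of 0.122, rested on an array pair that differed more than 10-fold. The MYC2 probe set too was chosen from the study's tables.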

How the data were processed

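The deposited values were probe set intensities of 14 Affymetrix Soybean Genome arrays, which the authors made with dChip from perfect match probes. Within each time, 1 array was scaled to the common median of the 14 and its partner was fitted to it, so that replicates were matched to each other before their spread was measured. The array was designed on cultivated soybean. No value was below the floor of 1 set before log2 was taken. Probe sets were kept at a mean log2 above 3.91 and a median SD/mean of replicates under 0.5, which left 28567.

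limma 3.58.1 in R 4.3.3 (lmFit, eBayes) was run on all 14 arrays with 7 groups, with Benjamini-Hochberg adjustment over all 28567; the residual degrees of freedom were 7, plus 3.24 from the prior. The study's methods call the arrays of a time independent biological replicates. The script was tested on simulated data. All 12 tested AOS, AOC and OPR probe sets are named, of other pathway roles up to 3 with the largest called change against 0 h, and the 5 highest correlations with each of the AOS1 probe sets. The gene lists and tests were chosen with earlier results of these data known. Of the study's tables only the descriptions were used, and 1 of them was held only in part, so further OPR probe sets may exist. The labels give 12 h of light a day and the study's methods a longer day. The age given above is that of the labels, and the study's methods give a lower one, counted from sowing. Alternatives were quantile normalization, median centring, log2(intensity + 16), no filter on low values, a replicate block, an intensity trend with robust spread, the 2 times compared alone, the methods' t-test, and each array left out. The methods' t-test with a q value was chosen after seeing the data. Sequences and genome positions were not used here.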

Additional observations from a re-analysis of the deposited data

Results flagged for a closer look

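Against 0 h, 3 probe sets were called higher at 6 h and lower at 12 h. They were singled out for opposite calls at these times, so the difference between 12 h and 6 h restates that choice and adds no support. All 3 are described after OPR1 or OPR2 of Arabidopsis, and LOC100803381a and the probe set without a symbol also after PsOPR3 of pea. The differences were -1.97 for LOC100803381a, -1.77 for the OPR1/OPR2-like probe set without a symbol and -2.24 for LOC100803381b, given as a description. LOC100803381a and LOC100803381b carry the symbol of 1 gene, and the 3 were chosen from tables of probe sets that the study called changed on these arrays. Each time had 2 arrays, so no array was set against the spread of its own group.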

How the results depend on the processing

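No change of the 12 probe sets that was called turned its direction under any alternative. Of 68 calls, 63 were kept under quantile normalization, 64 under median centring, 68 under log2(intensity + 16), 68 with an intensity trend, 55 with no filter on low values, 57 with only the 2 times compared, 2 under the methods' t-test adjusted as in limma and 27 under it with a q value. The t-test rests on 2 arrays against 2 with no pooled spread.

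Against 0 h at 0.5 h, 5 calls became 2 with no filter, 1 with only the 2 times compared and 0 under either t-test. At 1 h, 2 calls became 1 under median centring, and 0 with no filter, with the replicate block, with only the 2 times compared and under either t-test. At 3 h, 5 calls became 0 under the t-test and 3 with a q value, at 6 h 5 became 1 and 3, at 12 h 10 became 0 and 0, and at 24 h 11 became 0 under the t-test alone. At 3 h against 1 h, 11 calls became 0 under either t-test, at 6 h against 3 h 4 became 0 and at 12 h against 6 h 12 became 1 under the t-test, and at 24 h against 12 h 3 became 1 with only the 2 times compared and 0 under either t-test. The F-test, passed by 7, was passed by 2 with no filter. The cause was not tested.

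With each array left out in turn the counts were 1 to 6 at 0.5 h, 0 to 2 at 1 h, 0 to 5 at 3 h, 2 to 5 at 6 h, 8 to 10 at 12 h and 11 to 11 at 24 h against 0 h. Between neighbouring times they were 0 to 0 at 1 h against 0.5 h, 4 to 12 at 3 h against 1 h, 1 to 5 at 6 h against 3 h, 9 to 12 at 12 h against 6 h and 1 to 4 at 24 h against 12 h, and the F-test was passed by 1 to 7. The array that remains at such a time is assumed to vary like the other groups.

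The replicate numbers were taken only as names of the arrays. The deviations of same-numbered arrays correlated between -0.35 and 0.30 over 21 pairs of times, and 6 pairs were over 0.1. Whether same-numbered arrays belong together was not tested. With the replicate block the counts were 4, 0, 5, 4, 10 and 11 at 0.5 to 24 h against 0 h, 0, 9, 4, 11 and 3 between neighbouring times, and 7 for the F-test.

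Median centring moved the split of calls over all tested probe sets, to 2379 higher and 1547 lower at 3 h, against 1428 and 3421 as deposited, and to 4584 and 3396 at 24 h, against 1733 and 5594. The number of arrays limits the precision, with a median SE of 0.24 for a log2 change.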
